A study of Mus musculus with 16 samples.

Results

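The comparison described here is that of N25/2 cells kept for 5 h in medium without amino acids (deprived) with N25/2 cells kept for 5 h in medium with them (control). N25/2 is an immortalized line of embryonic mouse hypothalamic cells, grown in serum-containing DMEM before the treatment, and the labels name no other agent, genotype or serum condition that distinguished the groups. The arrays were chosen by their labels, which number 4 control and 4 deprived samples of 5 h among the 16 samples of the series; the other 8 are single control and deprived arrays of 1, 2, 3 and 16 h. The series was set up to follow solute carrier genes during starvation, and all 19938 named genes of its whole-transcript arrays are considered here, with most room given to genes outside the amino acid response. The labels do not say whether samples of a group came from separate cultures, so the p-values below rest on a spread that may be only technical, and all samples are of 1 cell line.

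Cells sense a lack of amino acids mainly along 2 routes. Uncharged tRNA activates the kinase GCN2, which slows translation and raises the transcription factor ATF4, and ATF4 with its partners binds C/EBP-ATF response elements (CARE) in genes for amino acid synthesis, uptake and tRNA charging. The growth kinase mTORC1 is switched off at the lysosome when its amino acid sensors are empty, which lowers ribosome and lipid synthesis and lets autophagy and lysosomal genes run. Between them these routes reach many genes that have no part in amino acid metabolism, among them growth factor targets, cell cycle genes and genes of the cytoskeleton and matrix.

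The deposited values are log2 levels, so a difference of 1 is a 2-fold change. On this scale Trib3, a pseudokinase induced by ATF4, read 8.18, 8.07, 8.29 and 7.87 on control arrays 1 to 4 and 10.70, 10.53, 10.44 and 10.83 on deprived arrays 1 to 4. That is a rise of 2.52 ± 0.12 (SE), with an adjusted p of 1.74e-05 in limma. Ddit3, which codes for the stress transcription factor CHOP, rose by 1.77 ± 0.14, Chac1, a glutathione-degrading enzyme, by 2.12 ± 0.10, and Asns, asparagine synthetase, by 1.01 ± 0.12, with adjusted p of 0.000187, 1.81e-05 and 0.00178 in limma. No control array overlapped a deprived one for any of these 4 genes, as was so for 10.5 percent of all genes in either direction. Of the 44 measured members of the amino acid response list 36 rose and 1 fell with all 8 arrays, where 2.41 and 1.7 percent of all genes did, with a median difference of 1.033 against -0.013 over all genes. Of the tRNA synthetase list 11 of 33 rose and none fell, and of the serine and folate list 7 of 16 rose and none fell, with 2 and 1 lower at an unadjusted p below 0.05 in limma. The count of tRNA synthetases was 7 without control array 2 or 3 or deprived array 1 or 2. Phgdh, Psat1, Psph, Shmt2, Mthfd2 and Aldh1l2 of the serine and folate list also belong to the amino acid response list. So does Cars of the tRNA synthetases. All of them were already counted among the rises of that list, so the counts are not separate, and these lists were written with earlier results of these data known. These groups mark the samples as deprived and are not followed further, except for members that also stand in another list.

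The label of the line was set against markers. Stmn2 and Map2, neuronal microtubule proteins, read 12.43 ± 0.26 and 9.55 ± 0.27 (SD, n = 4) on control arrays, and the progenitor genes Nes and Sox2 read 10.66 ± 0.22 and 10.87 ± 0.10. Tubb3, Rbfox3 and Snap25, also neuronal genes, read 5.96 ± 0.06, 6.45 ± 0.23 and 6.42 ± 0.21. Levels of different probes are not on 1 scale, so these values do not rank the genes and do not settle which of them the line expresses. Of the peptides that define hypothalamic neurons, Pomc read 6.47 ± 0.12, Npy 7.24 ± 0.28 and Oxt 8.31 ± 0.27, and none of the 13 measured changed. Of mesenchymal genes Col1a1 read 12.38 ± 0.29, Acta2 13.45 ± 0.13, Pdgfrb 11.84 ± 0.42 and Vim 13.72 ± 0.04. The genes quoted are only part of their lists, and the progenitor and mesenchymal ones lie above the median of theirs. Median control levels were 6.44 for the 10 neuronal, 7.03 for the 13 peptide, 7.63 for the 8 progenitor and 10.02 for the 8 mesenchymal genes. The lists for neurons, hypothalamic peptides, oligodendrocytes, microglia and endothelium had no member past the threshold in limma with or without the arrays numbered 4. At an unadjusted p below 0.05 these 5 lists held none with all 8 arrays, and 1 neuronal and 1 peptide gene, both lower, without the arrays numbered 4. The astrocyte list had 1 member that fell, Gja1, the gap junction protein connexin 43, with a difference of -0.76 ± 0.08 (adjusted p = 0.00102 in limma). The progenitor list likewise had 1, the intermediate filament gene Nes, at 10.62, 10.65, 10.41 and 10.95 on control and 9.91, 9.96, 9.88 and 10.10 on deprived arrays, a difference of -0.69 ± 0.12 (adjusted p = 0.00923).

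Array 4 of each group stood apart from the other 3. The root mean square difference between arrays of a group over all genes was 0.147 to 0.221 among control arrays 1 to 3 and 0.356 to 0.436 between them and control array 4. Among deprived arrays 1 to 3 it was 0.123 to 0.145, and against deprived array 4 it was 0.357 to 0.383. The levels on both arrays were also spread more widely, with the upper quartile of all genes at 9.52 and 9.51 against 9.27 to 9.37 on arrays 1 to 3, and the lower quartile at 5.87 and 5.86 against 5.98 to 6.16. The labels give no reason for the number 4, and whether it marks a separate culture, day or hybridization was not tested. Counts of called list members are therefore given below with all 8 arrays, without the arrays numbered 4, and with the array number as a block, which compares the groups within each number. The pairing that the block assumes rests on number 4. Among numbers 1 to 3 alone same-number deviations correlated with 0.193, -0.003 and -0.2.

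An adjusted p below 0.05 in limma was reached by 820 genes with all 8 arrays, 4.11 percent of those tested, of which 481 were higher (2.41 percent) and 339 lower (1.7 percent) in deprived cells. Of these, 80 rose and 7 fell at least 2-fold, and the median size of the 820 differences was 0.541 on the log2 scale. Without the arrays numbered 4 the number was 2695 (13.5 percent), with 1265 higher (6.34 percent) and 1430 lower (7.17 percent), and 84 and 13 at least 2-fold. All 820 genes were among the 2695 with the same sign, as 6 of the 8 arrays are shared. The 1875 genes that passed only without the arrays numbered 4 differed by a median of 0.330, and the median residual SD over genes was 0.154 with and 0.0938 without those arrays. The array number as a block gave 3632 genes (18.2 percent), 1639 higher (8.22 percent) and 1993 lower (10.0 percent), and again held all 820. It also called 1760 (93.9 percent) of the 1875 genes, so that passing only without the arrays numbered 4 is said below of that fit against the one with all 8 arrays and no block. The shares of all genes given here are what each count of list members below is to be read against. The lists were written with earlier results of these data known, so a list that stands out from these shares is no independent finding. With 1 of arrays 1 to 3 of either group left out instead, the number fell to between 382 and 521, whereas it was 1066 without control array 4 and 936 without deprived array 4.

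**Figure D1:**
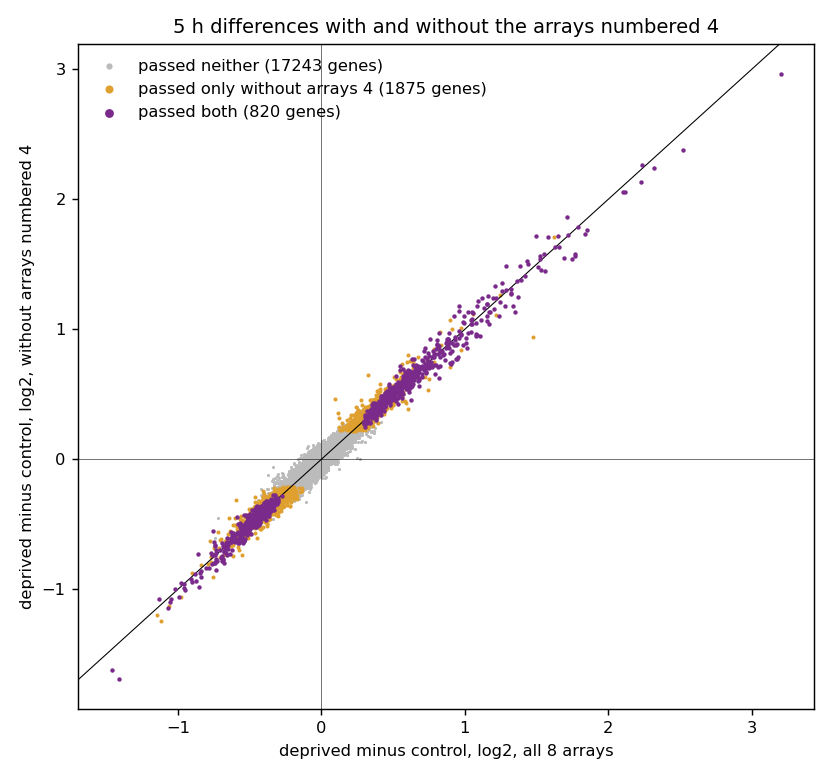
Each point is 1 of 19938 genes, with the log2 difference of deprived minus control cells at 5 h over all 8 arrays on the x axis and over the 6 arrays numbered 1 to 3 on the y axis; the line marks equality. The 820 genes that passed in both (purple) lie farther from 0 than most of the 1875 that passed only without the arrays numbered 4 (orange), and the 2 axes share 6 arrays.

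The largest rise outside the amino acid and solute carrier lists was that of Ciart, a repressor of the circadian transcription factors CLOCK and BMAL1. Control arrays 1 to 4 gave 8.42, 8.04, 8.01 and 7.53 and deprived arrays 10.43, 10.44, 10.34 and 10.08, a 4.99-fold rise (2.32 ± 0.17 on the log2 scale, adjusted p = 0.000153 in limma). Array 4 was the lowest of its group on both sides, and the gap between the groups was far wider than either spread. Gpr141, an orphan G protein-coupled receptor, read 7.07, 6.98, 6.52 and 5.92 on control and 9.46, 8.76, 9.13 and 8.08 on deprived arrays and rose by 2.23 ± 0.32 (adjusted p = 0.00433). Chka, the choline kinase that opens phosphatidylcholine synthesis, read 8.59, 8.56, 8.48 and 8.69 and 10.43, 10.43, 10.36 and 9.96. Its rise was 1.71 ± 0.11 with all 8 arrays (adjusted p = 0.000104) and 1.86 ± 0.07 without the arrays numbered 4 (adjusted p = 1.42e-07), and deprived array 4 was the lowest deprived array.

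Several of the other large rises were in genes of membrane traffic, lysosomes and autophagy. Rab39b, a small GTPase of vesicle traffic, read 8.09, 7.78, 7.73 and 6.95 on control and 9.62, 9.40, 9.47 and 8.69 on deprived arrays and rose by 1.66 ± 0.26 (adjusted p = 0.00694 in limma). Tmem74, a lysosomal membrane protein that promotes autophagy, rose by 1.58 ± 0.15, from 8.66, 8.58, 8.52 and 8.46 to 10.38, 10.33, 10.19 and 9.63. Dennd4a, an activator of Rab GTPases, was almost the same on all 4 control arrays, at 9.82, 9.79, 9.83 and 9.84, and read 11.48, 11.21, 11.32 and 11.02 on deprived arrays. C9orf72, a DENN-domain protein that acts with lysosomes and mTORC1 signalling, read 7.73, 7.71, 7.46 and 7.83 and 9.03, 8.95, 9.06 and 9.25 and rose 2.62-fold (adjusted p = 0.000153). These 4 genes had no overlap between groups, as was so for all 820 genes that passed with all 8 arrays. Array 4 was lowest in both groups for Rab39b but highest in both for C9orf72. The 4 genes were picked out of the 15 largest rises by what they do, after their values were seen.

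Other rises of this size concerned enzymes, a receptor and a transcription factor. Ero1a, the oxidase that drives disulfide formation in the endoplasmic reticulum, read 11.16, 10.91, 10.88 and 9.87 on control and 12.46, 12.45, 12.39 and 11.77 on deprived arrays, a rise of 1.56 ± 0.27. Fzd4, a receptor for Wnt proteins and norrin, read 8.69, 8.73, 8.60 and 8.28 and 10.33, 10.29, 10.30 and 9.89 and rose by 1.63 ± 0.13. Klf4, a Kruppel-like transcription factor, read 8.91, 8.76, 8.76 and 8.09 and 10.30, 10.19, 10.18 and 9.54 and rose by 1.42 ± 0.21. Adjusted p-values in limma were 0.0114, 0.000183 and 0.00509, and array 4 was the lowest of both groups for all 3 genes without bringing the groups to overlap. Otub2, a deubiquitinating enzyme, rose 3.14-fold, Acot2, a mitochondrial acyl-CoA thioesterase, 2.89-fold, the kinesin Kif21b 2.61-fold and Mei4, a gene of meiotic recombination, 2.93-fold, with adjusted p of 6.61e-05, 0.00113, 0.000153 and 5.88e-05. Dhrs9, a short-chain dehydrogenase, rose by 1.69 ± 0.31 (adjusted p = 0.0141), a call that ended without deprived array 1, 2 or 3 (adjusted p up to 0.059). Its control array 4, at 6.65, stood more than 1 below the other control arrays.

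**Figure D2:**
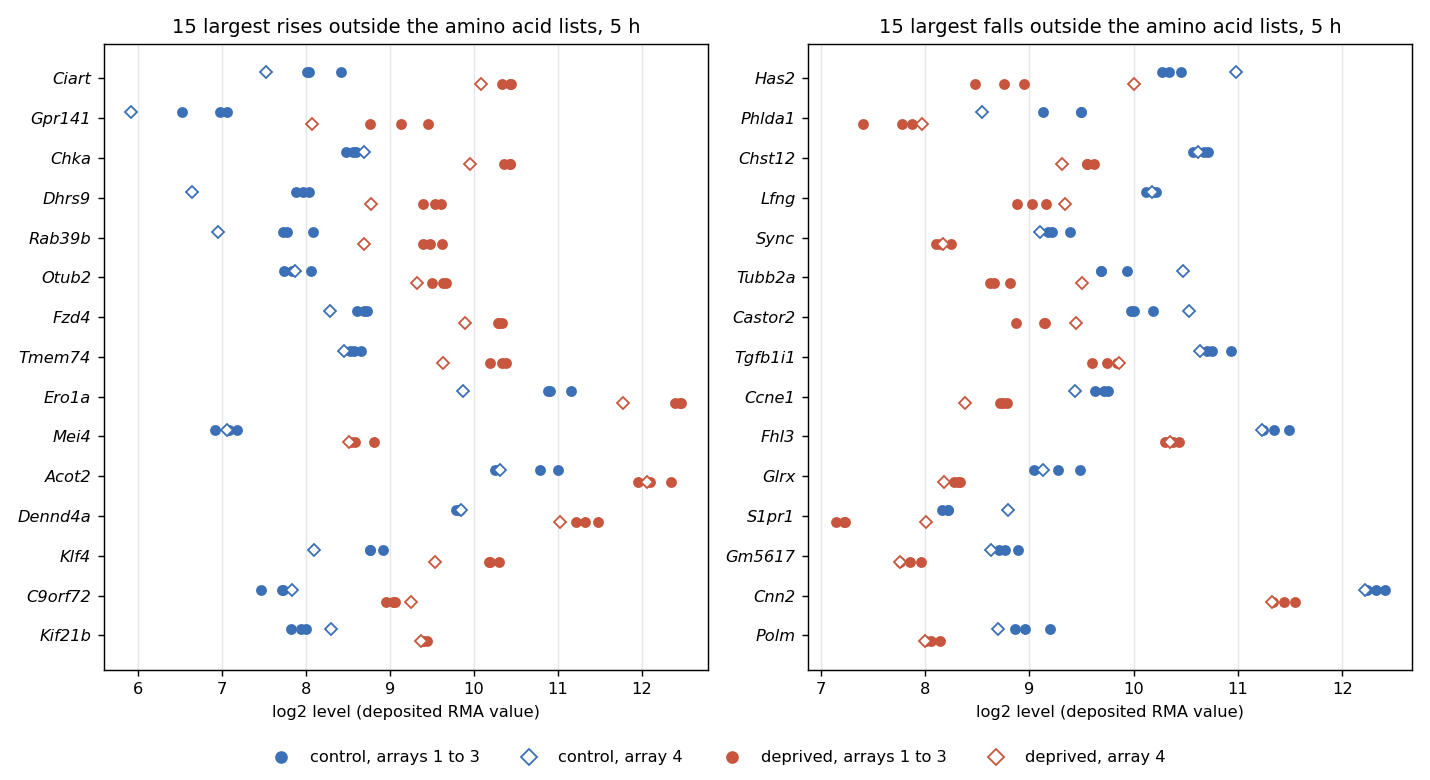
The log2 level on each of the 8 arrays is plotted on the x axis for the 15 largest rises (left) and 15 largest falls (right) outside the amino acid and solute carrier lists, with filled circles for arrays 1 to 3 and open diamonds for array 4 of each group. Control (blue) and deprived (red) arrays do not overlap for any of the 30 genes, nor for any of the 820 called genes they were drawn from. Array 4 lies outside the other 3 of its group for many, such as Dhrs9 at 6.65 and S1pr1 at 8.79 on control array 4.

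The start regions of some of these genes are shown since 2 short motifs were found more often near the genes that rose. RefSeq start sites (build GRCm38.p6) gave 15563 of the genes tested at least 1 window, 19116 windows in all, running from 250 bases before to 50 bases after the start. The CARE core, TGATGNAA on either strand, was present in 3.08 percent of all windows, and in 26.6 percent (17 of 64) of those of the amino acid and solute carrier genes that rose. Of the windows of the other genes that rose 6.07 percent (26 of 428) held it, and of those of the other genes that fell 0.571 percent (2 of 350). The E-box CACGTG, which reads the same on both strands and is bound by CLOCK with BMAL1 and by MYC and TFEB family proteins, was in 8.26 percent of all windows. It stood in 16.1 percent (69 of 428) of the windows of the other genes that rose and in 6.0 percent of those of the other genes that fell. Among the other genes that rose at least 2-fold the share was nearer to that of all windows, at 10.2 percent (5 of 49), and the AP-1 motif TGANTCA stood in 10.2 percent of these windows as well. A match is a description of these letters and not evidence of a bound site. In the stretches below capitals mark the motif found, as it reads 5′ to 3′ on the gene's strand.
Chac1, chr2:119351029-119351148, plus strand: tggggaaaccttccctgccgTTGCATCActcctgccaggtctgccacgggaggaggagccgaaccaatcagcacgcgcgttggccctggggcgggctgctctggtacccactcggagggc
Asns, chr6:7693210-7693329, minus strand: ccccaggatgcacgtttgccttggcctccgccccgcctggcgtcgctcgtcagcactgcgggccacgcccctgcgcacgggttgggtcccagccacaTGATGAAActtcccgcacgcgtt
Rab39b, chrX:75578182-75578211, minus strand: tgctgctgccaTTTCATCAcctttgcgagc
Ciart, chr3:95882245-95882364, minus strand: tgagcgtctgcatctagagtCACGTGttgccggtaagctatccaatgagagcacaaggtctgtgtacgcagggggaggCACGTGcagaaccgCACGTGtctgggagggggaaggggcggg
Klf4, chr4:55532558-55532677, minus strand: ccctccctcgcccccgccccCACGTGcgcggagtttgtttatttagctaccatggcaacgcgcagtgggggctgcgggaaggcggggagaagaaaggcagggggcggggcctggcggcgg
Chac1 and Asns are 2 of the 4 reference genes, with 1 CARE core each in the stretch shown. Trib3 also held a CARE core in its window, not shown here, whereas Ddit3 held none but had the AP-1 motif. Of the 15 largest rises outside the amino acid lists 13 had a window, and Rab39b alone held a CARE core, which lies after the start and on the opposite strand. Ciart carried 3 E-boxes in the 120 bases shown and Klf4 1, the only 2 of those 13 genes with that motif, while 3 of the 13, Dhrs9, Otub2 and Rab39b, held the AP-1 motif. The Rab39b stretch was taken by a set rule from the 15 largest rises, so its choice also rests on the values. All other stretches were chosen after the values were seen. The AP-1 motif was in 6.88 percent of all windows, 4.91 percent of those of the other genes that rose and 5.43 percent of those that fell, and motifs were searched for separately, so overlapping matches would count for each.

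The largest falls outside the amino acid and solute carrier lists began with Has2. It codes for the main hyaluronan synthase of many mesenchymal cells and read 10.27, 10.45, 10.34 and 10.98 on control and 8.75, 8.48, 8.95 and 10.00 on deprived arrays, a 2.75-fold fall (-1.46 ± 0.30, adjusted p = 0.0244 in limma). Without the arrays numbered 4 its difference was -1.62 ± 0.11 (adjusted p = 5.51e-06), whereas with all 8 the call ended on leaving out any 1 of arrays 1 to 3 of either group (adjusted p up to 0.0906). Phlda1, a target of growth factor signalling, read 9.50, 9.50, 9.13 and 8.54 and 7.78, 7.41, 7.87 and 7.97 and fell by 1.41 (adjusted p = 0.00565). Its control array 4 was the lowest control array and its deprived array 4 the highest deprived array, and the difference without them was -1.69 ± 0.13. S1pr1, a sphingosine-1-phosphate receptor, read 8.22, 8.22, 8.16 and 8.79 and 7.14, 7.23, 7.22 and 8.01. Array 4 was far above all others of its group on both sides, and the adjusted p was 0.034 with all 8 arrays, lost without any 1 of arrays 1 to 3 (up to 0.119), against 4.5e-06 without the arrays numbered 4.

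Falls that did not hang on any 1 array included genes of sulfation, Notch modification, the cell cycle and amino acid sensing. Chst12, a chondroitin 4-O-sulfotransferase, read 10.71, 10.57, 10.67 and 10.62 on control and 9.55, 9.55, 9.62 and 9.31 on deprived arrays and fell by 1.14 (SE 0.09, adjusted p = 0.000159 in limma). Lfng, the fringe enzyme that adds sugar to Notch receptors, read 10.21, 10.12, 10.18 and 10.18 and 9.16, 8.88, 9.02 and 9.34 (adjusted p = 0.000427). Castor2, a close relative and partner of the arginine sensor CASTOR1 upstream of mTORC1, read 10.00, 9.98, 10.19 and 10.53 and 9.14, 8.88, 9.15 and 9.45. It fell 2.03-fold with all 8 arrays (adjusted p = 0.00508), with array 4 the highest of both groups. Ccne1, the cyclin E1 of entry into S phase, read 9.72, 9.76, 9.63 and 9.44 and 8.71, 8.78, 8.75 and 8.38, a fall of 1.97-fold (adjusted p = 0.00123). Glrx, a glutaredoxin, fell 1.94-fold and Polm, a DNA polymerase of end joining, 1.84-fold, with adjusted p of 0.000978 and 0.00191.

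Genes of the actin cytoskeleton and its LIM-domain adaptors that changed all fell. Of 41 measured members none rose and 10 fell, against 2.41 and 1.7 percent of all genes, and the median difference of the list was -0.221 against -0.013 over all genes. The list was written with earlier results of these data known, so its contrast with all genes is in part one of choice. Without the arrays numbered 4 the number that fell was 18 against 7.17 percent of all genes, and none were higher. With the block 22 were lower and none higher, against 10.0 and 8.22 percent of all genes. At an unadjusted p below 0.05 in limma 20 were lower and none higher with all 8 arrays. Sync, an intermediate filament protein, read 9.39, 9.18, 9.22 and 9.10 on control and 8.25, 8.10, 8.14 and 8.18 on deprived arrays. Tgfb1i1, the focal adhesion adaptor Hic-5, read 10.93, 10.75, 10.70 and 10.64 and 9.75, 9.84, 9.60 and 9.86. Fhl3, a LIM-only cofactor, read 11.49, 11.35, 11.24 and 11.23 and 10.43, 10.30, 10.38 and 10.35, and the calponin Cnn2, an actin-binding protein, 12.41, 12.32, 12.24 and 12.22 and 11.34, 11.55, 11.44 and 11.33. All 4 fell, with differences of -1.05, -0.99, -0.96 and -0.88 and adjusted p from 0.000175 to 0.000427, and array 4 did not stand apart from its group in any of them. The tropomyosin Tpm2, the focal adhesion protein Vcl, the adaptor Pdlim2, the kinase Limk1, the filament gene Des and Tagln2 made up the 10, at -0.57, -0.45, -0.44, -0.51, -0.34 and -0.44. The count was between 6 and 11 with 1 array left out, and moved by over 1.5 times without control array 2 or deprived array 1 or 2. Acta2, smooth muscle actin, read 13.45 ± 0.13 on control and 13.26 ± 0.26 on deprived arrays and did not pass (adjusted p = 0.707). The CArG box, the DNA motif of serum response factor, was in 2 of the 9 windows of the 10 genes and in 1.41 percent of all windows.

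Tubulin genes that changed fell too, in numbers that differed with and without the arrays numbered 4. Of 13 measured 2 fell with all 8 arrays, against 1.7 percent of all genes, and 7 without those numbered 4, against 7.17 percent. With the block 6 were lower, against 10.0 percent of all genes. None were higher in any of the 3 fits, and the median difference was -0.229 with all 8 arrays and -0.279 without those numbered 4. Tubb6 read 11.30, 11.04, 10.92 and 11.43 on control and 10.16, 10.37, 10.15 and 10.65 on deprived arrays, a 1.79-fold fall (adjusted p = 0.0115 in limma). Tubb2a read 9.94, 9.69, 9.69 and 10.47 and 8.66, 8.82, 8.62 and 9.50, with an adjusted p of 0.0322 that was lost without any 1 of arrays 1 to 3 of either group (up to 0.114). Tuba1a read 12.27, 12.35, 12.27 and 12.90 and 11.33, 11.55, 11.59 and 12.14, and Tubb2b 10.48, 10.24, 10.16 and 10.96 and 9.14, 9.41, 9.15 and 10.21; both passed only without the arrays numbered 4 (adjusted p = 8.75e-05 and 5.63e-05 against 0.0525 and 0.0671, and 1.39e-05 and 3.06e-05 with the block). Array 4 was the highest of its group for all 4 genes in both groups. Tubb2a and Tubb2b are near-identical copies whose probes can pick up each other's transcripts, so their values are not independent. The count of 2 was between 1 and 4 with 1 array left out, and moved by over 1.5 times for every array but control array 4.

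Genes that build glycosaminoglycans moved in both directions. Of 43 measured 3 rose and 6 fell with all 8 arrays, against 2.41 and 1.7 percent of all genes, with a median of -0.129. Without those numbered 4 the counts were 3 and 11, against 6.34 and 7.17 percent of all genes, so that the rises were then near the share of all genes. With the block they were 5 and 14, against 8.22 and 10.0 percent. On the side of heparan sulfate, Glce, the glucuronyl epimerase, read 10.33, 10.26, 10.06 and 9.79 on control and 11.40, 11.43, 11.37 and 11.34 on deprived arrays and rose by 1.28 ± 0.12 (adjusted p = 0.000384 in limma). Hs6st1, a 6-O-sulfotransferase, read 10.12, 9.99, 10.01 and 10.05 and 10.99, 10.91, 10.86 and 10.94 and rose by 0.88 ± 0.07 (adjusted p = 0.000178), and Extl1, a heparan sulfate chain enzyme, rose by 0.64 ± 0.11 (adjusted p = 0.0107). On the side of chondroitin sulfate, besides Chst12, the polymerizing factors Chpf and Chpf2 and the sulfotransferase Chst15 fell, with differences of -0.40, -0.48 and -0.74 (adjusted p = 0.0108, 0.0136 and 0.0117). The other 2 that fell were Has2, above, and Chst2, which sulfates N-acetylglucosamine, at -0.55 (adjusted p = 0.0442). Glce, Hs6st1 and Extl1 passed whichever array was left out (adjusted p up to 0.00333, 0.00194 and 0.0484), and the number that fell was between 3 and 6, moving by over 1.5 times without control array 1 or 2 or deprived array 1, 2 or 3. The split by chain type was noticed after the values were seen.

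The matrix and its proteases showed mostly small differences. Of 21 matrix proteases and inhibitors 1 rose and 2 fell with all 8 arrays, 2 and 10 without those numbered 4, and 2 and 9 with the block, with a median of -0.219. For all genes these 3 fits gave 2.41 and 1.7, 6.34 and 7.17, and 8.22 and 10.0 percent higher and lower. Adamts1, a protease that cleaves the proteoglycans versican and aggrecan, read 8.01, 7.98, 7.83 and 7.89 on control and 7.23, 7.34, 7.14 and 7.28 on deprived arrays and fell 1.6-fold (adjusted p = 0.00125 in limma). Mmp19, a matrix metalloprotease, rose by 0.62 ± 0.11 (adjusted p = 0.0146), a call lost without control array 2 or deprived array 1 (up to 0.0626). The membrane metalloprotease Mmp14 and the urokinase Plau passed only without the arrays numbered 4, at -0.49 and -0.62 (adjusted p = 0.000663 and 0.00012, against 0.0684 and 0.5 with all 8, and 0.000317 and 0.00056 with the block). The count of 2 was between 1 and 5 with 1 array left out, and moved by over 1.5 times for all but control arrays 3 and 4. Of 33 collagen genes none rose, with 0 higher and 8 lower at an unadjusted p below 0.05 in limma, and Col8a1, the only 1 that fell, differed by -0.33 (adjusted p = 0.0316) and lost its call without any 1 array except control array 4 (up to 0.127). The median of the collagen list was -0.163, and 4 were lower without the arrays numbered 4 and 9 with the block, with none higher. Vcan, the versican gene, showed how far array 4 could reach, at 7.51, 7.56, 7.50 and 9.56 on control and 6.97, 7.05, 7.15 and 8.76 on deprived arrays. Its adjusted p was 0.894 with all 8 arrays, 0.00111 without those numbered 4 and 0.000448 with the block.

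Circadian genes that changed rose. Of 17 measured 4 rose and none fell with all 8 arrays (6 higher and 1 lower at an unadjusted p below 0.05 in limma), 7 and 0 without those numbered 4, and 8 and 0 with the block, with a median of 0.225. In the same 3 fits 2.41 and 1.7, 6.34 and 7.17, and 8.22 and 10.0 percent of all genes were higher and lower. Beside Ciart, Nr1d2, which codes for the heme-sensing repressor REV-ERB beta, read 10.40, 10.23, 10.34 and 10.23 on control and 11.30, 11.27, 11.21 and 11.14 on deprived arrays, a 1.91-fold rise (adjusted p = 0.000187). Nfil3, a repressor that competes for D-box elements, read 8.53, 8.58, 8.62 and 8.88 and 9.34, 9.45, 9.31 and 9.59 and rose 1.7-fold (adjusted p = 0.00254). Cry2, a cryptochrome, rose by 0.41 ± 0.10 (adjusted p = 0.0451) and kept its call only without control array 4, with adjusted p up to 0.164. Arntl, which codes for BMAL1, Per3 and Bhlhe40 passed only without the arrays numbered 4, at 0.38, 0.31 and 0.36 (adjusted p = 0.011, 0.00941 and 0.0337, against 0.198, 0.843 and 0.44 with all 8, and 0.03, 0.0145 and 0.0956 with the block). With any 1 array left out 3 to 5 of the list rose.

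Targets of p53 changed in both directions. Of 22 measured 4 rose and 3 fell with all 8 arrays, against 2.41 and 1.7 percent of all genes, and 4 rose and 6 fell without those numbered 4, against 6.34 and 7.17 percent of all genes. With the block 6 were higher and 7 lower, against 8.22 and 10.0 percent. Sesn2, a leucine-binding inhibitor of mTORC1 that ATF4 also induces, read 8.83, 8.34, 8.49 and 8.16 on control and 10.37, 10.35, 10.25 and 10.28 on deprived arrays and rose 3.62-fold (adjusted p = 0.000133 in limma). Gadd45a, a growth arrest gene, read 8.87, 8.79, 8.70 and 9.27 and 10.59, 10.56, 10.39 and 10.96 (adjusted p = 0.000303), and Eda2r, a receptor of the tumour necrosis factor family, and Trp53inp1, an autophagy and stress cofactor, rose by 1.18 ± 0.11 and 0.93 ± 0.07. Those that fell were Sesn1, the sister gene of Sesn2, Phlda3, an inhibitor of AKT, and the death receptor gene Tnfrsf10b. They differed by -0.73 ± 0.16, -0.53 ± 0.09 and -0.41 ± 0.08, with adjusted p of 0.0377, 0.00966 and 0.0251. The number that rose was 4 whichever array was left out, and the number that fell was between 1 and 4 and moved by over 1.5 times without control array 1, 2 or 3 or deprived array 1 or 3. Sesn2, Gadd45a and Tnfrsf10b are also members of the amino acid response list and were counted there. Several members are targets of ATF4 as well as of p53, so the list does not separate the 2.

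Genes held down by growth factor signalling through AKT, the FOXO targets, were higher in part. Of 26 measured 2 rose and none fell with all 8 arrays, with 7 higher and 3 lower at an unadjusted p below 0.05 in limma, and 9 were higher and 3 lower both without those numbered 4 and with the block. Among all genes the shares higher and lower in these 3 fits were 2.41 and 1.7, 6.34 and 7.17, and 8.22 and 10.0 percent. Tsc22d3, the glucocorticoid-induced leucine zipper, read 8.22, 7.96, 7.73 and 8.40 on control and 9.21, 9.20, 9.05 and 9.19 on deprived arrays and rose 2.12-fold (adjusted p = 0.0021). Klf9, a Kruppel-like transcription factor, read 10.63, 10.65, 10.69 and 10.44 and 11.60, 11.47, 11.50 and 11.10 and rose 1.76-fold (adjusted p = 0.00421). Txnip, the thioredoxin-binding arrestin that responds to glucose metabolites, read 9.64, 10.22, 10.33 and 11.32 and 10.99, 11.15, 11.08 and 12.19, higher by 1.01 ± 0.15 without the arrays numbered 4 (adjusted p = 0.000948) but not past the threshold with all 8 (0.228), where the block gave 3.11e-05. Its control array 4 was above every deprived array numbered 1 to 3. Insr, the insulin receptor gene, and Fbxo32, a ubiquitin ligase of muscle wasting, likewise passed only without the arrays numbered 4, at 0.47 and 0.53 (adjusted p = 0.000835 and 0.000965, against 0.0823 and 0.294, and 0.00024 and 0.00034 with the block). The number that rose was between 2 and 6 with 1 array left out, and was moved by over 1.5 times by control array 4, while 2 members fell without deprived array 4.

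Immediate early genes, which serum and growth factors switch on within minutes, differed in both directions. Of 28 measured 2 rose and 1 fell with all 8 arrays, against 2.41 and 1.7 percent of all genes. The counts were 8 higher and 7 lower both without those numbered 4 and with the block. All genes then gave 6.34 and 7.17 percent without those numbered 4, and 8.22 and 10.0 percent with the block. Myc read 10.52, 10.48, 10.23 and 9.65 on control and 11.69, 11.63, 11.45 and 11.47 on deprived arrays and rose 2.53-fold (adjusted p = 0.00268 in limma), and with Klf4, above, made up the 2. Egr1, a zinc finger factor, read 7.61, 7.70, 7.69 and 9.11 and 9.04, 8.93, 8.82 and 10.29. It was higher in deprived than in control cells within each array number, by 1.26 ± 0.07 without the arrays numbered 4 (adjusted p = 2.17e-06), but control array 4 lay above all deprived arrays numbered 1 to 3 and the adjusted p with all 8 was 0.148 without and 7.69e-07 with the block. Jun, a subunit of AP-1, and Srf, serum response factor itself, differed by -0.60 and -0.59 without the arrays numbered 4 (adjusted p = 0.000368 and 0.000155, against 0.233 and 0.0932, and 0.000115 and 0.000373 with the block). Rhob, a small GTPase, fell, at -0.52 (adjusted p = 0.0175), a call lost without control array 2 or deprived array 1, 2 or 3 (up to 0.0737). The number of members that rose was 5 without deprived array 4. The number that fell was between 0 and 4, and moved by over 1.5 times for all but control arrays 1 and 3.

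Hypoxia targets and secreted stress factors held rises and falls. Vegfa, the vascular growth factor, read 9.74, 9.54, 9.50 and 9.27 on control and 10.94, 10.86, 10.81 and 10.73 on deprived arrays and rose 2.5-fold (adjusted p = 0.000175 in limma). With Ero1a and Ndrg1, a stress gene that rose by 0.60 ± 0.08, it made up the 3 of 20 hypoxia targets that rose. Vegfa and Ndrg1 are also members of the amino acid response list and were counted among its rises. Slc2a1, the glucose transporter GLUT1 and also a hypoxia target, read 12.43, 12.24, 12.23 and 11.84 and 11.49, 11.49, 11.60 and 11.40 and fell 1.61-fold (adjusted p = 0.012). Of the hypoxia list 5 were higher and 2 lower both without the arrays numbered 4 and with the block. The list's median was 0.018, and array 4 was low for it, at 9.08 against 9.52 to 9.70 for the mean of its 20 genes on control arrays and 9.35 against 9.63 to 9.82 on deprived ones. Of 18 secreted stress factors and stress genes 5 rose and 1 fell with all 8 arrays, 7 and 3 without those numbered 4, and 7 and 4 with the block, although their median was -0.064. Both lists are to be read against all genes, with 2.41 percent higher and 1.7 percent lower with all 8 arrays. Those shares were 6.34 and 7.17 percent without the arrays numbered 4, and 8.22 and 10.0 percent with the block. Nupr1, a stress-induced chromatin protein, read 10.89, 10.74, 10.77 and 10.85 and 12.32, 12.26, 12.26 and 12.45, and Stc2, stanniocalcin 2, 7.96, 7.79, 8.08 and 7.29 and 9.55, 9.44, 9.37 and 8.53, rises of 1.51 ± 0.08 and 1.44 ± 0.24. Angptl4, an inhibitor of lipoprotein lipase, Igfbp4, which binds insulin-like growth factors, and the peptide hormone gene Adm2 rose by 0.95 ± 0.14, 0.82 ± 0.14 and 0.59 ± 0.11. Nupr1, Stc2 and Adm2 also belong to the amino acid response list. The endoplasmic reticulum chaperone gene Manf was the 1 that fell, at -0.37 (adjusted p = 0.0127), and this count was 0 to 2 with 1 array left out, moving without control array 2 or deprived array 1, 3 or 4. Creld2 and Sdf2l1, which serve the same compartment, passed only without the arrays numbered 4, at -0.58 and -0.53 (adjusted p = 0.000286 and 0.000347, and 9.6e-05 and 0.000141 with the block).

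Cell cycle lists held few calls with all 8 arrays. Of 47 genes of G1, the G1 to S step and replication, 1 rose and 3 fell, against 2.41 and 1.7 percent of all genes. The 1 rise was thus near the share of all genes. Without those numbered 4 the counts were 7 and 5, against 6.34 and 7.17 percent of all genes. With the block they were 9 and 5, against 8.22 and 10.0 percent. The median was -0.013, that of all genes. Beside Ccne1, Ccnd3, the D-type cyclin of many differentiating cells, read 10.47, 10.31, 10.24 and 10.25 on control and 9.81, 9.77, 9.66 and 9.80 on deprived arrays and fell 1.47-fold (adjusted p = 0.00454 in limma). Cdt1, a licensing factor of replication origins, read 10.18, 10.02, 9.99 and 10.39 and 10.86, 10.78, 10.57 and 11.10. It rose 1.61-fold (adjusted p = 0.0168), a call lost without control array 1, 2 or 3 or deprived array 1 or 2 (up to 0.0669) and firmer without the arrays numbered 4 (0.000519). The third that fell, the ribonucleotide reductase subunit Rrm2, differed by -0.35 (adjusted p = 0.0392) and kept its call only without control array 3.

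Genes of G2 and mitosis are where the difference between groups and the departure of array 4 met. None of 39 passed in either direction with all 8 arrays in limma, with 1 higher and 5 lower at an unadjusted p below 0.05. Without the arrays numbered 4 none were higher and 9 were lower, against 6.34 and 7.17 percent of all genes. With the block none were higher and 15 lower, against 8.22 and 10.0 percent. The median difference was -0.137 over all 8 arrays and -0.110 without those numbered 4. Leaving out deprived array 4 alone gave 1 that fell, and any other single array gave 0. The mean of the 39 genes was 10.49 to 10.59 on control arrays 1 to 3 and 11.03 on control array 4, and 10.37 to 10.41 on deprived arrays 1 to 3 and 10.80 on deprived array 4. Kif23, a kinesin of cytokinesis, read 10.70, 10.80, 10.83 and 11.16 on control and 10.21, 10.46, 10.51 and 10.74 on deprived arrays, a difference of -0.38 ± 0.09 without the arrays numbered 4 (adjusted p = 0.0135, against 0.172, and 0.00113 with the block), a call lost without control array 2 or deprived array 1. Cdca3, a trigger of mitotic entry, read 9.53, 9.36, 9.46 and 10.44 and 9.05, 9.14, 9.02 and 9.82 (adjusted p = 0.00476 without the arrays numbered 4, against 0.578, and 0.00151 with the block). For both genes the deprived array was the lower within every array number, while deprived array 4 of Cdca3 lay above control arrays 1 to 3.

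**Figure D3:**
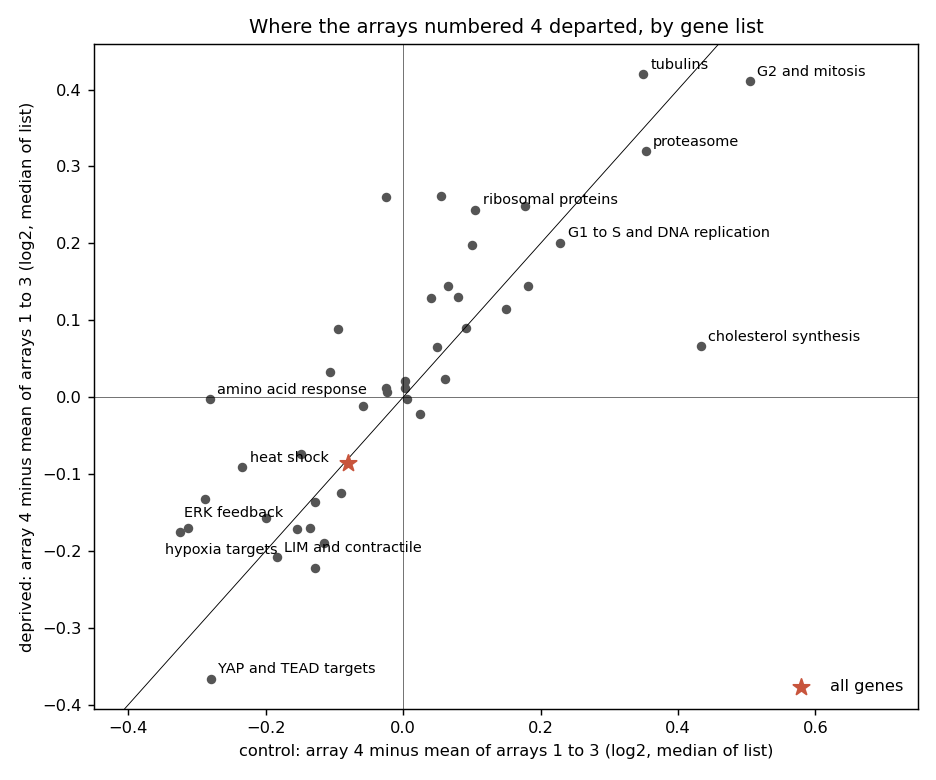
Each point is 1 gene list, placed by the median log2 departure of control array 4 from the mean of control arrays 1 to 3 (x axis) and the same for deprived arrays (y axis); the star stands for all genes, at -0.08 and -0.086, and the line marks equality. The G2 and mitosis list (0.505 and 0.411), tubulins and the proteasome lie high on both axes, hypoxia targets and the LIM and contractile list low on both, and cholesterol synthesis high in control cells (0.433) only.

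The departures of array 4 differed between gene lists, and for many lists they ran the same way in both groups. Array 4 lay above arrays 1 to 3 in both groups for 28.3 percent of all genes and below them for 39.8 percent, and for 36 of the 39 mitotic genes, 28 of the 39 proteasome genes and 9 of the 13 tubulins it lay above. It lay below in both groups for 15 of the 20 hypoxia targets and 26 of the 41 LIM and contractile genes. With the 8 arrays quantile-normalized again, so that all have the same spread of levels, the median departure of the mitotic list was 0.417 in control and 0.295 in deprived cells, against -0.011 and -0.008 over all genes. The 1178 olfactory and vomeronasal receptors, which are not known to work in these cells, had median departures of -0.155 and -0.172, which became -0.021 and -0.027 after that step. The widest departures were in single genes. Edil3, an extracellular integrin ligand, read 8.49, 8.45, 8.30 and 11.40 on control and 8.45, 8.06, 8.52 and 11.25 on deprived arrays, Scn7a, a sodium channel gene, 5.45, 5.67, 5.63 and 8.99 and 5.42, 5.42, 5.55 and 8.50, and Col6a3, a collagen VI chain, 7.57, 7.53, 7.78 and 10.10 and 7.44, 7.57, 7.50 and 9.64. In the other direction Parm1, a mucin-like membrane protein, read 11.13, 11.12, 11.06 and 7.73 and 10.81, 10.75, 10.89 and 7.52, and Fabp4, a fatty acid carrier, 9.44, 9.53, 9.36 and 6.84 and 9.32, 9.24, 9.49 and 6.69. In all 5 array 4 lay over 2 from the rest on the log2 scale in both groups. Parm1 was lower in deprived cells without the arrays numbered 4 and with the block (adjusted p = 0.0168 and 0.0123), and the other 4 did not pass in any of the 3 fits. In all, array 4 was at least 1 above the mean of arrays 1 to 3 in both groups for 121 genes and at least 1 below for 77, and their origin was not tested.

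Signalling lists held changes in both directions, to be read against 2.41 and 1.7 percent of all genes higher and lower with all 8 arrays. Those shares were 6.34 and 7.17 percent without the arrays numbered 4, and 8.22 and 10.0 percent with the block. Of 20 feedback genes of ERK signalling 2 rose and 2 fell with all 8 arrays. Of the list 4 were higher and 7 lower without those numbered 4, and 7 and 7 with the block. Etv5, an ETS factor induced by ERK, read 7.26 ± 0.18 on control and 8.01 ± 0.16 on deprived arrays (SD, n = 4) and rose 1.69-fold (adjusted p = 0.0055 in limma), while Phlda1, above, fell. Of 33 Notch genes 1 rose and 2 fell with all 8 arrays, while 4 were higher and 4 lower without those numbered 4, and 4 and 5 with the block. Rbpj, the DNA-binding partner of the Notch receptors, read 10.72, 10.68, 10.55 and 10.53 and 11.29, 11.29, 11.38 and 11.08, a rise of 0.64 ± 0.09 that did not pass with the mean of its array rows (adjusted p = 0.0966). Lfng was among those that fell. Of 42 Wnt genes 3 rose and 1 fell with all 8 arrays, while 5 were higher and 7 lower without those numbered 4, and 5 and 8 with the block. Fzd4 was the largest rise and its fellow receptor Fzd8 the 1 that fell, at -0.55 ± 0.09 (adjusted p = 0.00888). Of 35 TGF beta and BMP genes 2 rose and 2 fell with all 8 arrays, while 5 were higher and 8 lower without those numbered 4, and 5 and 8 with the block. Id2, a dominant-negative helix-loop-helix protein, read 10.46, 10.46, 10.40 and 10.11 and 9.61, 9.60, 9.74 and 9.53 and fell 1.67-fold (adjusted p = 0.00285), and the receptor gene Tgfbr2 fell 1.4-fold (adjusted p = 0.00488). The 2 that rose, Skil and Smad7, lost their calls without most single arrays (up to 0.156 and 0.0863). Of 34 growth factors and receptors 3 were higher and 7 lower without those numbered 4, and 4 and 9 with the block. With all 8 arrays 1 rose, Vegfa, which is also in the amino acid response list. The 1 that fell was Fgfr2, at -0.46, a call lost without control array 1 or 3 or deprived array 1, 2 or 3 (up to 0.0823). Of 23 YAP and TEAD targets 2 were higher and 5 lower without those numbered 4, and 3 and 6 with the block. The calls with all 8 arrays were 1 rise, Amotl1, and 1 fall, Ccn1, and both calls ended without most single arrays (up to 0.17 and 0.15). Apart from the falls of the Wnt and TGF beta lists, each of these counts moved by over 1.5 times for at least 1 array left out.

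The chemokine and inflammation list gave 1 call with all 8 arrays and the interferon response list 3. Of 31 chemokine and inflammation genes none rose and 1 fell, near the 2.41 and 1.7 percent of all genes. At an unadjusted p below 0.05 in limma 0 were higher and 8 lower. Without the arrays numbered 4 none were higher and 8 lower, against 6.34 and 7.17 percent of all genes. With the block the counts were 0 and 10, against 8.22 and 10.0 percent. Cxcl12, a chemokine of stromal cells, read 10.44, 10.47, 10.30 and 10.54 on control and 9.63, 9.56, 9.86 and 9.62 on deprived arrays, a 1.71-fold fall (adjusted p = 0.00156). Cxcl5 and Il33, an alarmin, differed by -0.74 and -0.67 without the arrays numbered 4 (adjusted p = 0.000958 and 0.00188, against 0.145 and 0.352, and 0.000558 and 0.000566 with the block), and 4 members of the list fell without control array 4 and 2 without deprived array 4. Of 24 interferon response genes none rose and 3 fell with all 8 arrays. Of the list 1 was higher and 8 lower without those numbered 4, and 1 and 9 with the block. Xaf1, a pro-apoptotic interferon target, read 7.23, 7.08, 7.16 and 7.07 and 6.65, 6.78, 6.58 and 6.72 and fell 1.37-fold (adjusted p = 0.0113), a call lost only without deprived array 1 (0.0525). Gbp3 and Ifit3, which belong to the same response, fell, at -0.47 and -0.57 (adjusted p = 0.0163 and 0.0373), and their calls ended without control array 2 or deprived array 2 or 3, and that of Ifit3 also without control array 3 or deprived array 1 or 4 (up to 0.0674 and 0.115).

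Among the machines of protein and RNA synthesis, tRNA processing stood on the higher side. Of 38 genes of tRNA processing and export 5 rose and none fell with all 8 arrays, with 12 higher and 0 lower at an unadjusted p below 0.05 in limma. Of the list 9 were higher and 1 lower without those numbered 4, and 13 and 3 with the block. Over all genes 2.41 and 1.7, 6.34 and 7.17, and 8.22 and 10.0 percent were higher and lower in these 3 fits. Xpot, which exports tRNA from the nucleus, read 10.74, 10.67, 10.54 and 10.10 on control and 11.70, 11.67, 11.71 and 11.64 on deprived arrays and rose 2.25-fold (adjusted p = 0.00115). It is also a member of the amino acid response list. Qtrt1, which places queuine in tRNA, and the pseudouridine synthase Pus3 rose 1.65-fold and 1.53-fold (adjusted p = 0.00869 and 0.00715). The count was between 3 and 6 with 1 array left out, and moved by over 1.5 times without control array 2 or 3 or deprived array 1, 2 or 3. Of 28 genes of RNA polymerases I and III none rose and 1 fell with all 8 arrays, with 4 higher and 3 lower at an unadjusted p below 0.05. The balance turned without the arrays numbered 4, with 6 higher and 2 lower, and with the block, with 5 and 2. The 1 that fell was Gtf3c1, a subunit of TFIIIC, at 10.37, 10.38, 10.41 and 10.49 and 9.87, 9.83, 9.90 and 10.09 (adjusted p = 0.00917). None of 58 ribosomal protein genes passed with all 8 arrays, with 1 higher and 1 lower at an unadjusted p below 0.05, and their median was 0.011; without the arrays numbered 4 none were higher and 2 lower, and with the block none and 1.

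Metabolic and protein quality lists gave 0 to 2 calls each with all 8 arrays, to be read against 2.41 and 1.7 percent of all genes higher and lower, and more in the other fits. There the shares of all genes were 6.34 and 7.17 percent without the arrays numbered 4, and 8.22 and 10.0 percent with the block. None of 67 genes of oxidative phosphorylation passed with all 8 arrays in limma, with 0 higher and 13 lower at an unadjusted p below 0.05, and none were higher and 12 lower without those numbered 4 and 18 lower with the block, all small, with a median of -0.136. Uqcr11, a subunit of complex III, read 11.63, 11.72, 11.73 and 11.45 and 11.23, 11.37, 11.42 and 10.93 without overlap (adjusted p = 0.12 with all 8 arrays, 0.00118 with the block and 0.00805 without those numbered 4, the last lost without deprived array 1). Of 20 cholesterol synthesis genes none rose and 2 fell with all 8 arrays (0 higher and 5 lower at an unadjusted p below 0.05). Of the list 3 were higher and 5 lower without those numbered 4, and 0 and 8 with the block. Dhcr7, which makes cholesterol in the last step, read 8.66, 8.61, 8.59 and 8.66 and 8.05, 7.96, 7.85 and 8.02 and fell 1.58-fold (adjusted p = 0.00108). Mvk, mevalonate kinase, differed by -0.46 (adjusted p = 0.0473), a call lost without any 1 array except control array 4 (up to 0.162). The median of this list was -0.274 with all 8 arrays and -0.135 without those numbered 4, and its mean was 10.08 on control array 4 against 9.37 to 9.57 on control arrays 1 to 3, but 9.44 on deprived array 4 against 9.29 to 9.43. Of 25 NRF2 targets none rose and 2 fell with all 8 arrays (3 higher and 6 lower at an unadjusted p below 0.05), while 4 were higher and 7 lower without those numbered 4, and 4 and 7 with the block. The 2 were Nqo1, a quinone reductase, and Srxn1, a sulfiredoxin, at -0.63 and -0.34, both lost without several single arrays of 1 to 3 (up to 0.0983 and 0.141). Of 39 proteasome genes 1 rose, Psmc6, by 0.49, a call lost without control array 2 or deprived array 2 (up to 0.0565), and none fell, with 5 lower at an unadjusted p below 0.05. Of the list 1 was higher and 6 lower without those numbered 4, and 1 and 8 with the block. Bok, of the BCL2 family, read 10.09, 10.04, 9.96 and 10.07 and 9.10, 9.45, 9.25 and 9.55 and fell 1.63-fold (adjusted p = 0.0053).

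**Figure D4:**
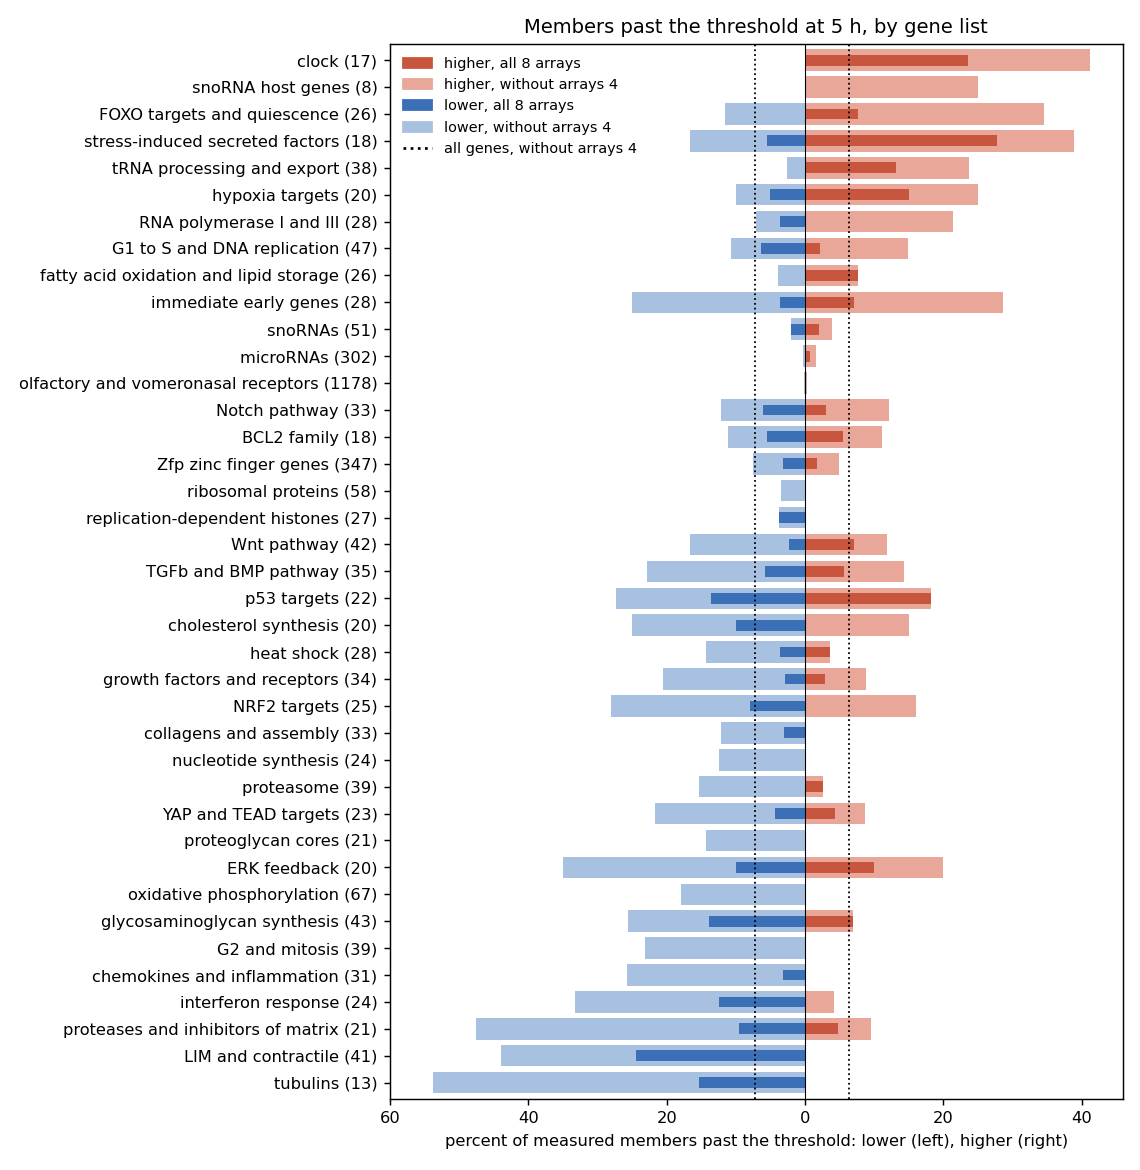
For each gene list, with the number of measured members in brackets, bars to the right give the percent of members higher and bars to the left the percent lower in deprived cells at an adjusted p below 0.05 in limma, dark for all 8 arrays and pale without the arrays numbered 4. Dotted lines mark all genes without the arrays numbered 4 (6.34 percent higher and 7.17 percent lower); bars of clock genes lie on the right alone and those of the LIM and contractile list (10 of 41, and 18 of 41) and tubulins on the left alone.

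Large families of short or related transcripts were counted too. Of 347 Zfp zinc finger genes 6 rose and 11 fell with all 8 arrays, against 2.41 and 1.7 percent of all genes. Of these genes 17 were higher and 26 lower without those numbered 4, and 27 and 35 with the block. Among all genes 6.34 and 7.17 percent were higher and lower without those numbered 4, and 8.22 and 10.0 percent with the block. The same shares hold for the families below. Zfp945 was the largest change, at 7.49, 7.58, 7.50 and 7.70 on control and 8.73, 8.55, 8.54 and 8.66 on deprived arrays (adjusted p = 0.000174 in limma), and with 1 array left out these counts ran from 2 to 8 and from 2 to 13. Of 302 microRNA genes 2 rose, Mir18 and Mir708, by 0.66 and 0.61 (adjusted p = 0.0175 and 0.00978), and that of Mir18 was lost without control array 1, 2 or 3 or deprived array 1 or 2 (up to 0.0669). Mir18 read 5.08, 4.90, 5.02 and 5.31 on control arrays, below the lower quartile of all genes on every array (5.86 to 6.16). At a level so near the background its rise allows no firm statement. Of the microRNA genes 5 were higher and 1 lower without those numbered 4, and 9 and 2 with the block. The microRNA counts lay below the shares of all genes in each fit. None of the 1178 olfactory and vomeronasal receptors passed with all 8 arrays, with 3 higher and 1 lower at an unadjusted p below 0.05. Of the list 3 were higher and 2 lower without those numbered 4, and 2 and 0 with the block. H2bc4 was the only 1 of 27 replication-dependent histone genes that fell, at -0.68 ± 0.10 (adjusted p = 0.00523), and none rose, the same counts as without the arrays numbered 4 and with the block.

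For the largest differences among genes that passed only without the arrays numbered 4, array 4 lay far from the other 3. Beside Egr1 and Txnip, Ptx3, a pentraxin of innate immunity, read 7.71, 7.65, 7.81 and 6.69 on control and 8.88, 8.76, 8.73 and 7.06 on deprived arrays, and Steap1, a metalloreductase, 9.14, 9.05, 8.64 and 7.46 and 10.16, 9.85, 10.16 and 8.98. Their differences without the arrays numbered 4 were 1.07 ± 0.07 and 1.11 ± 0.13 (adjusted p = 6.24e-06 and 0.000227 in limma), against adjusted p of 0.37 and 0.14 with all 8 and no block, and 0.000244 and 3.11e-05 with the block. On the lower side, Cdc42ep2, an effector of the GTPase CDC42, read 9.84, 9.84, 9.67 and 8.64 and 8.46, 8.59, 8.57 and 7.90, the MAP kinase phosphatase Dusp10 10.57, 10.63, 10.55 and 9.95 and 9.79, 9.78, 9.74 and 9.03, and Ppbp, a platelet chemokine, 10.57, 10.49, 10.44 and 8.80 and 9.41, 9.25, 9.43 and 7.96. Cdc42ep2 and Dusp10 did not overlap between groups on all 8 arrays and missed the threshold by little (adjusted p = 0.0505 and 0.0524), while deprived arrays 1 to 3 of Ppbp lay above control array 4. With the block the adjusted p of these 3 genes was 1.53e-05, 5.11e-06 and 4.5e-06. Car6, a secreted carbonic anhydrase, was the widest case, at 9.41, 9.21, 8.96 and 5.66 and 10.27, 9.98, 10.15 and 8.76. Groups of 4 did not overlap for 10.5 percent of all genes, 5.15 percent higher and 5.38 percent lower, and for all 820 genes that passed with all 8 arrays.

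The other hours gave arrays that the 5 h comparison did not use, 1 control and 1 deprived at each, so their differences have no replicate check. Of the 413 genes outside the amino acid and solute carrier lists that rose at 5 h, 56.9 percent were higher in the deprived array at 1 h, 86.0 percent at 2 h, 90.1 percent at 3 h and 96.1 percent at 16 h. Over all genes the deprived array was the lower for 47.0, 51.8, 45.7 and 56.2 percent at the same hours. Of the 328 that fell, 42.4 percent were lower at 1 h, 85.1 percent at 2 h, 97.6 percent at 3 h and 91.2 percent at 16 h. Median differences of the genes that rose were 0.028, 0.208, 0.255 and 0.78, and of those that fell 0.028, -0.154, -0.287 and -0.627. Genes that passed only without the arrays numbered 4 had the same sign at 3 h in 78.8 percent (784 higher) and 92.1 percent (1091 lower), and at 16 h in 81.6 and 81.5 percent. Ciart differed by 0.20, 0.91, 1.24 and 2.18 at 1, 2, 3 and 16 h, and Gpr141 by -0.16, 0.37, 0.50 and 2.48. Rates of same sign are a description, since genes of 1 pair of arrays are not independent.

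**Figure D5:**
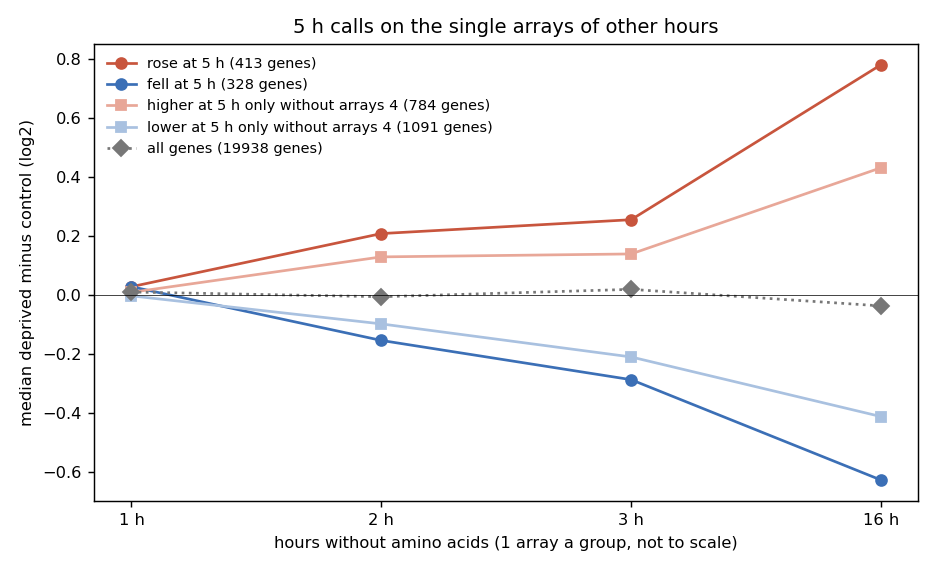
The median log2 difference of 1 deprived minus 1 control array (y axis) at 1, 2, 3 and 16 h (x axis, not to scale) is drawn for groups of genes defined at 5 h, with no error because each point is 1 pair of arrays. Genes that rose or fell at 5 h with all 8 arrays (circles, 413 and 328 genes outside the amino acid and solute carrier lists) stand apart from 0 from 2 h on, reaching 0.78 and -0.63 at 16 h, those that passed only without the arrays numbered 4 (squares) less so, and all genes (diamonds) stay near 0.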

How the data were processed

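Per the labels' protocols, amplified and biotinylated cDNA of N25/2 RNA was run on Affymetrix arrays that cover whole transcripts. Values are log2 levels that the authors obtained with RMA; the submitters' processing notes list this tool and limma with no version, and background and summary settings are not given in the sources used here. The table has 35556 rows, of which 21789 carry 1 gene symbol in the platform annotation, 1621 several and 12146 none here. Symbols were updated through Entrez identifiers (21698 matched), and of several rows the one with the highest mean was kept (999 genes), leaving 19938 genes.

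The 4 deprived and 4 control arrays of 5 h were compared in R 4.3.3 by limma 3.58.1 (lmFit with eBayes, two-sided, Benjamini-Hochberg over all 19938 genes, threshold 0.05), with and without the arrays numbered 4. Data handling and plots used Python 3.11.15, numpy 2.4.6, pandas 2.3.3 and matplotlib 3.10.9, and the fits were tested on simulated data. Deviations from group means correlated between same-numbered arrays with 0.354, 0.584, 0.467 and 0.896, all above 0.1. Numbers were therefore treated as pairs in an alternative with the number as a block. The means were those of all 4 arrays, so the shared departure of array 4 also enters the deviations of arrays 1 to 3. Among numbers 1 to 3 alone the correlations were 0.193, -0.003 and -0.2, and only that of number 1 was above 0.1. The numbers come from the labels, which give no reason for them.

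Genes were named as the 15 largest rises and falls outside the amino acid and solute carrier lists, up to 4 called members of each list, or 2 called without the arrays numbered 4 where none passed, the 8 largest rises and falls called only without those arrays, the 5 highest and lowest departures of array 4, the 5 genes that moved most, and Trib3, Ddit3, Chac1 and Asns. Further members that complete a small count, or that passed only without the arrays numbered 4, were named after their values were seen. Members, lists and tests were chosen with earlier results of these data known. Start regions and coordinates are those of RefSeq for GRCm38.p6. The number of arrays limits the precision of every value.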

Additional observations from a re-analysis of the deposited data

Results flagged for a closer look

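For each of the 161 named genes the 4 control and the 4 deprived arrays were looked at separately, and a value was marked where its gap to the nearest of the other 3, as a share of its group's range, was above Dixon's critical value for 4 values, which chance passes in about 1 group in 20. Of 322 such groups 60 held a marked value, 57 of them on an array numbered 4. Some of these genes were named for the departure of their array 4, so this number is no rate over all genes and is not to be set against chance. Values below are log2 levels.

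Control array 4 was marked as the highest of its group for S1pr1 (8.79), Cdca3 (10.44), Vcan (9.56), Sdc1 (9.99), Skil (9.68), Zfp354c (8.99), Egr1 (9.11), 4930523C07Rik (10.09), Tuba1a (12.90), Scn7a (8.99), Edil3 (11.40), Col6a3 (10.10), Mmp3 (8.35) and Cd200 (8.90). It was marked as the lowest for Dhrs9 (6.65), Mthfd2 (10.17), Dusp7 (10.42), Cox6a2 (7.37), Ptx3 (6.69), Gckr (6.70), Car6 (5.66), Cdc42ep2 (8.64), Ppbp (8.80), Tnfrsf21 (7.70), Dusp10 (9.95), Parm1 (7.73), Serpinb9b (7.64), Gask1b (7.03) and Fabp4 (6.84).

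Deprived array 4 was marked as the highest for S1pr1 (8.01), Cdca3 (9.82), Vcan (8.76), Hspa9 (12.60), Psmc6 (11.50), Nme1 (9.65), Rps27l (10.79), Egr1 (10.29), Txnip (12.19), Scn7a (8.50), Edil3 (11.25), Col6a3 (9.64), Mmp3 (8.22) and Cd200 (8.26). It was marked as the lowest for Chka (9.96), Fzd4 (9.89), Ero1a (11.77), Klf4 (9.54), Ccne1 (8.38), Ccn1 (11.66), Ptx3 (7.06), Ppbp (7.96), Dusp10 (9.03), Parm1 (7.52), Serpinb9b (6.97), Gask1b (6.70), Fabp4 (6.69) and Serpinb6b (6.39).

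Genes marked on array 4 of both groups, and on the same side, include Scn7a, Edil3, Col6a3, Mmp3 and Cd200 above and Parm1, Serpinb9b, Gask1b and Fabp4 below, as well as Egr1, Vcan, Cdca3 and S1pr1 above and Ptx3, Ppbp and Dusp10 below. The 3 marked values on other arrays were those of Gbp3 on control array 2, the highest of its group at 7.13, Snord14e on deprived array 2, the lowest at 8.40, and Tsc22d3 on deprived array 3, the lowest at 9.05.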

How the results depend on the processing

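With all 8 arrays 820 genes passed, and the replicate block gave 3632 (1639 higher, 1993 lower), leaving out both arrays numbered 4 gave 2695, another quantile normalization 1231, array weights 5485 and a 1.5-fold minimum 335; all 820 were among the genes called with the block, without the arrays numbered 4 and with array weights. With 1 array left out the count ran from 382 to 1066. Centring on array medians gave 780, genes above the median level 960, the mean of a gene's array rows 831 and a trended and robust variance prior 754. Without the arrays numbered 4, where 2695 passed, a 1.5-fold minimum gave 443, 1 more array left out gave 1656 to 2910, and the block, quantile normalization, centring, the level filter, mean rows and the trended prior gave 2316, 3236, 2598, 3416, 2709 and 3289. The pairing by array number that the block assumes rests on number 4: among numbers 1 to 3 alone same-number deviations correlated with 0.193, -0.003 and -0.2. No call was reversed under these settings among the 161 named genes, of which the level filter tested 149. Settings that leave out no array ended the calls of 15 named genes: 7 with quantile normalization, 7 with centring, 6 with the trended prior and 1 with mean rows. Of the 120 named genes called with all 8 arrays 38 lost the call with at least 1 array left out, 24 to 35 of them for each of arrays 1 to 3 and 4 or 8 for an array numbered 4. The counts of the 50 gene lists moved by over 1.5 times for 36 lists without both arrays numbered 4, 39 with the block, 12 with quantile normalization and 4 with centring. Array weights were run with all 8 arrays only. With 4 arrays a group, or 3, small differences are limited by the number of arrays, and levels near the background of the array, such as those of olfactory receptors, allow no statement on change.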

Other observations

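Lists not described above gave these values at 5 h, as counts at an adjusted p below 0.05 in limma. With all 8 arrays 2.41 and 1.7 percent of all genes were higher and lower. Those shares were 6.34 and 7.17 percent without the arrays numbered 4, and 8.22 and 10.0 percent with the block. In lists this short, 1 or 2 calls are no result about the list. Of 28 heat shock genes 1 rose and 1 fell with all 8 arrays. Of the list 1 was higher and 4 lower without those numbered 4, and 2 and 6 with the block. The mitochondrial chaperone gene Hspa9 rose by 0.62 ± 0.13, and the cochaperone gene Bag3 fell, at -0.63 ± 0.13. Both calls ended without several of arrays 1 to 3 (adjusted p up to 0.0837 and 0.105). Of 18 BCL2 family genes 1 rose, Mcl1, and 1 fell, Bok. Of the list 2 were higher and 2 lower without those numbered 4, and 3 and 2 with the block. Of 26 genes of fatty acid oxidation and lipid storage 2 rose, Angptl4 and Plin2, the latter by 0.36 ± 0.08 (adjusted p = 0.0447) and lost without any 1 array except deprived array 4. Of the list 2 were higher and 1 lower without those numbered 4, and 4 and 4 with the block. None of 21 proteoglycan core genes and none of 24 nucleotide synthesis genes passed with all 8 arrays, with 0 higher and 5 lower, and 0 higher and 3 lower, at an unadjusted p below 0.05, and 3 of each list were lower without the arrays numbered 4, and 6 and 5 with the block. None of 8 host genes of small nucleolar RNAs passed with all 8 arrays (2 higher at an unadjusted p below 0.05), and Snhg5 and Snhg16 were higher without those numbered 4, at 0.45 and 0.48 (adjusted p = 0.00189 and 0.0264, and 0.000872 and 0.0015 with the block). Of 51 small nucleolar RNAs 2 were higher and 1 lower without those numbered 4, and 6 and 2 with the block. With all 8 arrays 1 rose, Snora75, and 1 fell, Snord14e, at 0.61 ± 0.13 and -0.56 ± 0.10.

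The genes whose difference moved most on leaving out the arrays numbered 4, among the 820, were Phlda1, Slc7a11, Slc23a3, Thap6 and Mthfd2. Slc7a11, the cystine importer, read 8.93, 8.78, 8.51 and 7.29 on control and 11.79, 11.66, 11.67 and 11.22 on deprived arrays, and its difference was 3.21 ± 0.32 with all 8 arrays and 2.96 ± 0.10 without those numbered 4. Mthfd2, a mitochondrial folate enzyme, read 10.88, 10.89, 10.79 and 10.17 and 12.03, 11.94, 11.99 and 12.16, and its difference went from 1.35 to 1.13. Thap6, a zinc finger gene, read 7.94, 7.72, 7.59 and 8.06 and 9.03, 8.83, 8.92 and 8.36, and its difference went from 0.96 to 1.18. All 5 genes passed both with and without the arrays numbered 4.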
